A study of Mus musculus with 9 samples.

Results

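The 9 genes described here encode the methionine cycle, its betaine branch and transsulfuration: Mat1a, Mat2a, Gnmt, Ahcy, its near-identical copy Gm4737, Bhmt, Bhmt2, Cbs and Cth. They were chosen by symbol from the 54393 genes of a liver RNA-seq count table. Each symbol matched 1 identifier of the GENCODE M21 annotation, and all 9 passed the filter on low counts. The table holds 9 libraries: 5 of untreated control mice and 4 of mice on antibiotics that are not absorbed and deplete the gut microbiota. All mice were of the strain written C56Bl/6j and ate the purified diet AIN-76a. No source used here gives the names, doses or duration of the antibiotics, or the age and sex of the mice. The design asks which liver transcripts differ between conventional and microbiota-depleted mice.

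Methionine adenosyltransferases turn methionine into S-adenosylmethionine (SAM), the methyl donor for most methylation reactions of the cell. Each methyl transfer leaves S-adenosylhomocysteine, which is split into adenosine and homocysteine. Homocysteine is then either methylated back to methionine, with betaine or a folate as the methyl source, or passed through cystathionine to cysteine. The liver is the main site of methionine breakdown in mammals and holds both outlets for homocysteine.

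Library totals ran from 28156248 to 49628737 estimated counts in controls. Antibiotics libraries 1, 2 and 3 held 15422891 to 18504624 counts, and antibiotics library 5 held 59179622, so depth differed with the group. The 9 genes had at least 772 counts in every library. Together they took up 0.71% to 0.83% of all counts in the control libraries and 1.07% to 1.18% in the antibiotics libraries, with no overlap. Levels are given as normalised read counts in CPM (counts scaled to a common library total) on libraries scaled by TMM factors, and errors of means are SDs.

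The sequences of Ahcy and Gm4737 are shown because they bear on how far the counts of these genes can be told apart. Ahcy (ENSMUSG00000027597.15) lies on chromosome 2, 155059310 to 155074497, minus strand, GRCm38, in 10 exons. Gm4737 (ENSMUSG00000048087.6) lies on chromosome 16, 46152985 to 46155077, minus strand, in 1 exon. The annotated transcripts, of 2543 nt for Ahcy and 2093 nt for Gm4737, share 2086 nt at 99.7% identity. The rest of the longer Ahcy transcript lies outside that alignment. Over the 1299 bases from the start codon through the stop codon they differ by 4 substitutions, C459T, G474A, C1050T and C1068T (Ahcy's base first, counted from 1 at the first base of the start codon). All 4 fall on the last base of a codon, and 0 of the 432 codons differ in the amino acid. The stretches below cover coding bases 429 to 489 and 1020 to 1080 of both genes, from GENCODE M21 transcripts, with the differing bases in capitals. The Gm4737 stretches are chr16:46154524-46154584 and chr16:46153933-46153993, and the Ahcy stretches lie within chr2:155064883-155065553, across 2 exons, and chr2:155062236-155062296.
Ahcy, bases 429 to 489: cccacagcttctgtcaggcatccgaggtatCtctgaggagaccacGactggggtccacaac
Gm4737, bases 429 to 489: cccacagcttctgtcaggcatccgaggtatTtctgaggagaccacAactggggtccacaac
Ahcy, bases 1020 to 1080: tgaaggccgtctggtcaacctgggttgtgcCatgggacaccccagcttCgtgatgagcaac
Gm4737, bases 1020 to 1080: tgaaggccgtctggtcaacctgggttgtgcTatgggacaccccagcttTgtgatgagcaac

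The start sites of this pair lie in unlike surroundings, so the 250 bases upstream of each RefSeq start site are shown (GRCm38.p6, minus strand). They are chr2:155074498-155074747 for Ahcy, with 52.8% G and C, and chr16:46155078-46155327 for Gm4737, with 29.6%. Capitals mark matches to the motifs searched on both strands. Ahcy holds 1 CCAAT box (CCAAT, written ATTGG on this strand) and 1 GC box (GGGCGG, written CCGCCC), and Gm4737 holds 1 TATA box (TATAAA).
Ahcy upstream: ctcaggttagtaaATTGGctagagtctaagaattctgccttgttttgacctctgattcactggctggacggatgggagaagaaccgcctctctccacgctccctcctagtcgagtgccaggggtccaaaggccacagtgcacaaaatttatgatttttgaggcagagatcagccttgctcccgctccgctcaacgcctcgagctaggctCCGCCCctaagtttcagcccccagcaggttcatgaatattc
Gm4737 upstream: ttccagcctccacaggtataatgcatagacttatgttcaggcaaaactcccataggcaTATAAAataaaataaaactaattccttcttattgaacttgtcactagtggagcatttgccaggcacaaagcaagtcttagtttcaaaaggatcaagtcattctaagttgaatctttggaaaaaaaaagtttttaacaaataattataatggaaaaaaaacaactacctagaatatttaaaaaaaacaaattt

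Of the 32851 RefSeq upstream stretches of that length, 33.8% hold a CCAAT box, 32.7% a GC box and 12.4% a TATA box. RefSeq start sites were found for 7 of the 9 genes, all except Mat1a and Cth. A CCAAT box was found upstream of Mat2a, Gnmt, Ahcy, Bhmt and Cbs, and a GC box upstream of Mat2a, Ahcy, Bhmt2 and Cbs. A TATA box was found upstream of Mat2a (position -32 from the start site) and Gm4737 (-192), and an E-box (CACGTG, in 6.02% of all stretches) upstream of Cbs. The match of Bhmt, and of Cbs 1 CCAAT box and 1 GC box, lie inside the gene as GENCODE M21 annotates it, since the RefSeq start site is further downstream. The cAMP response element TGACGTCA and the amino acid response element TGATGNAAN were found in none of the 7, against 1.55% and 3.44% of all stretches. These are matches of letters only.

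With antibiotics, 6 of the 9 transcripts were higher and 0 lower at an adjusted p under 0.05 (quasi-likelihood test of edgeR, Benjamini-Hochberg over 14873 genes). Bhmt rose 1.87-fold, Gm4737 1.74-fold, Cth 1.596-fold, Ahcy 1.54-fold, Mat1a 1.40-fold and Bhmt2 1.23-fold, while Mat2a, Gnmt and Cbs did not pass. The calls of Ahcy and Gm4737 are not separate observations, since the split of their shared reads is Salmon's estimate. Among all tested genes 2.68% passed, 1.63% as higher and 1.05% as lower. The same 6 members passed with DESeq2 and with limma-voom, again with 0 lower, and 7 members, the 6 and Gnmt, had an unadjusted p under 0.05, against 18.5% of tested genes. All 6 were also the members whose 2 groups did not overlap, which held for 8.88% of tested genes, 4.59% in the higher and 4.29% in the lower direction. The median log2 fold change was 0.48 over the 9 genes and -0.01 over all tested genes. In a whole liver, more cells of a type and more RNA per cell cannot be told apart. Leaving out 1 library at a time left 3 to 6 members above the threshold, with 3 (Ahcy, Gm4737 and Bhmt) without antibiotics library 3.

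**Figure D1:**
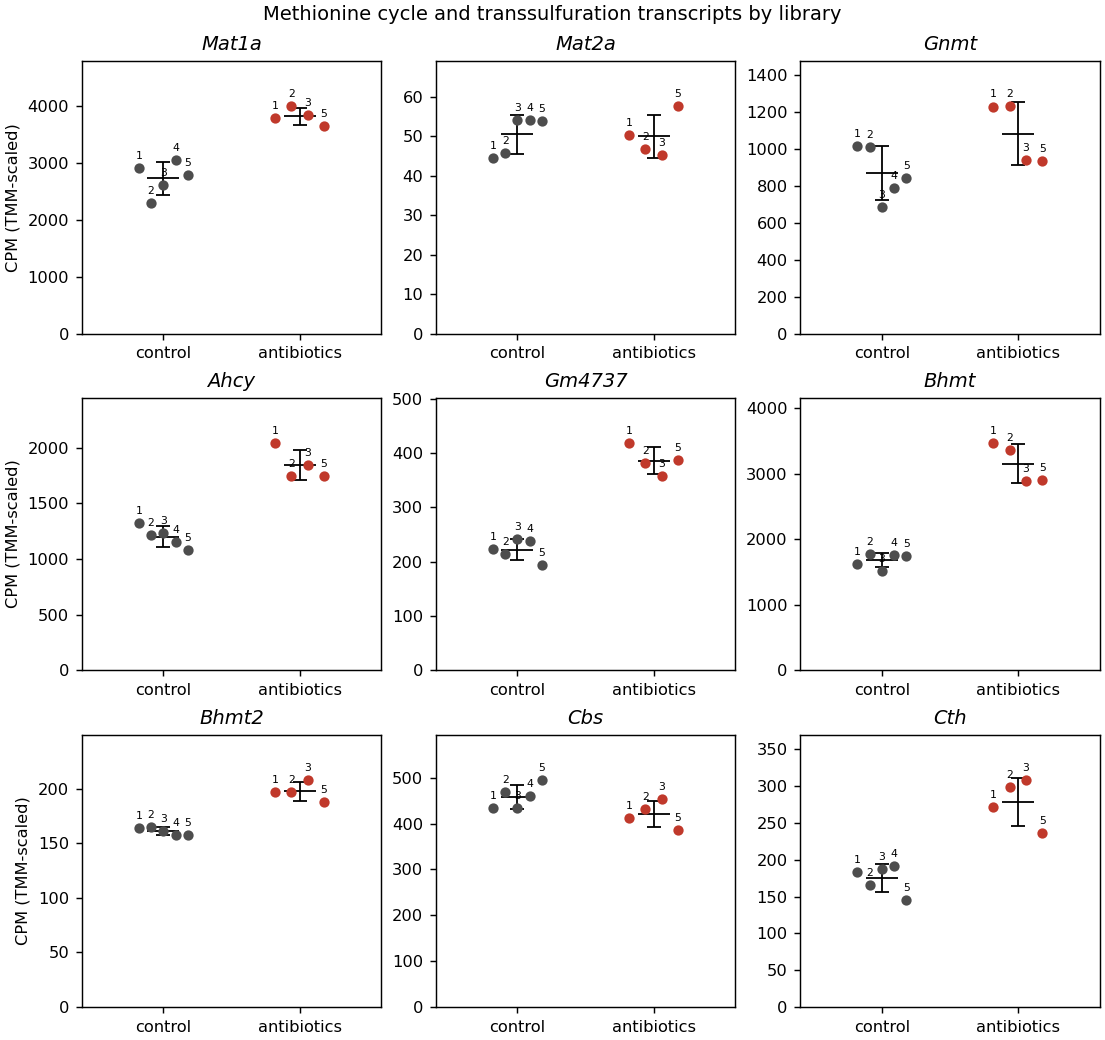
Level of each of the 9 transcripts (y axis, CPM on TMM-scaled libraries, from 0) in the 5 control (grey) and 4 antibiotics (red) libraries; numbers beside points are replicate numbers, and bars show the mean ± SD. The groups do not overlap for Mat1a, Ahcy, Gm4737, Bhmt, Bhmt2 and Cth, and overlap for Mat2a, Gnmt and Cbs.

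Mat1a encodes the methionine adenosyltransferase of the adult hepatocyte (ENSMUSG00000037798.7, chromosome 14, 41105035 to 41124412, GRCm38). It measured 2904, 2291, 2612, 3044 and 2776 CPM in control libraries 1 to 5, and 3782, 3986, 3838 and 3640 CPM in antibiotics libraries 1, 2, 3 and 5. The lowest antibiotics library was thus above the highest control. The means were 2725 ± 290.3 (SD, n = 5) and 3812 ± 143 CPM (SD, n = 4), a log2 fold change of 0.48 ± 0.10 (SE, edgeR adjusted p = 0.0381). This call was near the threshold: of the 9 fits that left out 1 library, it held only without control library 5 (adjusted p = 0.0483), with 0.0511 to 0.102 in the other 8 and a log2 fold change of 0.43 to 0.53. Without a filter on low counts Mat1a did not pass either (adjusted p = 0.0574).

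Mat2a encodes the form of the same enzyme found in most tissues outside the liver and in growing liver cells (chromosome 6, 72432799 to 72439558). It was the least abundant of the 9, at 44.4 to 54.2 CPM in controls and 45.2 to 57.6 CPM with antibiotics. The ranges overlapped over most of their width, and the means were 50.5 ± 4.91 and 49.98 ± 5.50 CPM (log2 fold change -0.01 ± 0.09, adjusted p = 0.967). A long noncoding RNA, Particl, overlaps Mat2a on the opposite strand and had 10 to 42 counts per library, while the close copy Gm9523 is listed at 0 in all 9.

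Gnmt encodes glycine N-methyltransferase, which takes up SAM to methylate glycine to sarcosine and is abundant in liver (chromosome 17, 46725664 to 46729168). It measured 1016, 1011, 682, 789 and 843 CPM in controls and 1228, 1229, 939 and 933 CPM with antibiotics. Antibiotics libraries 3 and 5 lay within the control range, and 1 and 2 above it. Gnmt varied most among the 9 within a group, with a coefficient of variation of 16.7% in controls. Its log2 fold change of 0.32 ± 0.14 did not pass (edgeR adjusted p = 0.260).

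Ahcy encodes adenosylhomocysteinase, the enzyme that splits S-adenosylhomocysteine and so relieves its inhibition of methyltransferases. It measured 1325, 1215, 1236, 1155 and 1080 CPM in controls and 2042, 1751, 1844 and 1751 CPM with antibiotics. Every antibiotics library was above every control. The means were 1202 ± 91.7 and 1847 ± 137 CPM (log2 fold change 0.62 ± 0.09, edgeR adjusted p = 0.0135), and the call held in all 9 fits that left out 1 library (adjusted p = 0.0154 to 0.0481).

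Gm4737 encodes the same amino acid sequence in 1 exon. Its values were 224, 215, 241, 237 and 193 CPM in controls and 418, 382, 358 and 388 CPM with antibiotics. No antibiotics library came near the control range. The log2 fold change was 0.80 ± 0.08 (edgeR adjusted p = 0.00293), the fourth smallest p of all tested genes, and the call held whichever library was left out (adjusted p = 0.00431 to 0.0168). With so few differing bases in the shared part of the transcripts, the split of those reads between Ahcy and Gm4737 is Salmon's estimate. Summed to 1 feature, the pair had a log2 fold change of 0.65 (edgeR adjusted p = 0.0111), and a further copy, Gm9826, at 13 to 86 counts per library, left that value at 0.65.

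Bhmt encodes betaine-homocysteine methyltransferase, which returns homocysteine to methionine with a methyl group from betaine (ENSMUSG00000074768.6, chromosome 13, 93616675 to 93637961, minus strand). It showed the largest fold change of the 9. Control libraries measured 1627, 1768, 1513, 1763 and 1745 CPM, and antibiotics libraries 3463, 3357, 2886 and 2906 CPM. The lowest antibiotics library exceeded the highest control by more than the whole range within either group. The means were 1683 ± 111 and 3153 ± 300.04 CPM (log2 fold change 0.91 ± 0.10, edgeR adjusted p = 0.00326), and all 9 fits that left out 1 library called it (adjusted p = 0.00623 to 0.0168). The close copies Gm5096 and Bhmt-ps1 held 74 to 333 and 23 to 130 counts per library, and adding them left the log2 fold change at 0.91. The noncoding gene Gm15622 overlaps Bhmt on the opposite strand, and no source used here says whether the counting used strand.

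Bhmt2 lies beside Bhmt on the same chromosome and strand (93655720 to 93674302) and encodes a related enzyme that uses S-methylmethionine as its methyl donor. The coding sequences align over 1092 bases at 74.9% identity, well short of the likeness between Ahcy and Gm4737. Bhmt2 measured 164, 165, 161, 157 and 157 CPM in controls and 197, 197, 208 and 188 CPM with antibiotics. The groups did not overlap. In controls its spread was the smallest of the 9, at 2.23% of the mean. The log2 fold change was 0.30 ± 0.06 (edgeR adjusted p = 0.0334). When 1 library was left out the call held in 2 of 9 fits, those without control 3 (adjusted p = 0.0431) or control 5 (0.0428), with 0.0549 to 0.107 in the other 7, and it failed without a filter on low counts (0.0890).

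Cbs, cystathionine beta-synthase, joins homocysteine to serine in the first step of transsulfuration (ENSMUSG00000024039.15, chromosome 17, 31608894 to 31637238). It measured 435, 469, 433, 461 and 495 CPM in controls and 413, 432, 453 and 385 CPM with antibiotics. Antibiotics libraries 1, 2 and 5 lay below every control and library 3 within their range. The log2 fold change was -0.12 ± 0.08 (edgeR adjusted p = 0.442).

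Cth, cystathionine gamma-lyase, releases cysteine in the second step (ENSMUSG00000028179.12, chromosome 3, 157894248 to 157925077). It measured 184, 165, 187, 191 and 145 CPM in controls and 271, 299, 308 and 236 CPM with antibiotics. The groups did not overlap, with antibiotics library 5 the nearest to the controls. The log2 fold change was 0.67 ± 0.10 (edgeR adjusted p = 0.0140), and it failed without antibiotics library 3 (adjusted p = 0.0501). Of the transcripts for the 2 steps of transsulfuration, that of Cth passed as higher. That of Cbs did not pass, and its groups overlapped.

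**Figure D2:**
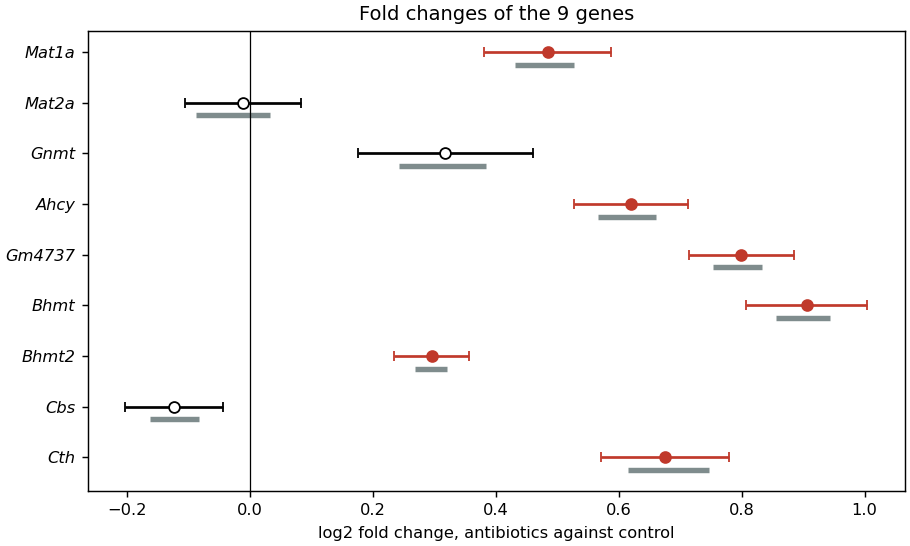
Log2 fold change of each gene, antibiotics against control (x axis), as points with ± SE; filled red points passed at an edgeR adjusted p under 0.05 and open points did not. Grey bars give the range when 1 library was left out. Those of the 6 genes that passed, and that of Gnmt (0.24 to 0.38), which did not, stay above 0. That of Cbs (-0.16 to -0.08) stays below 0, and that of Mat2a crosses it.

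Ratios of 2 counts within a library do not depend on how libraries are scaled, and 4 ratios of related genes were compared by an exact two-sided permutation test over all ways to choose 4 of the 9 libraries. The smallest p this design allows is 0.00794, and p-values were adjusted over the 4 ratios. The ratio of Bhmt to Bhmt2 was 9.90, 10.7, 9.41, 11.2 and 11.1 in controls and 17.6, 17.0, 13.9 and 15.5 with antibiotics. It did not overlap between the groups and was 1.52-fold higher with antibiotics (log2 difference 0.61, exact p = 0.00794, adjusted p = 0.0159).

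The ratio of Cth to Cbs was 0.422, 0.353, 0.432, 0.414 and 0.294 in controls and 0.656, 0.693, 0.681 and 0.613 with antibiotics. It was 1.74-fold higher, again with no overlap (log2 difference 0.80, exact p = 0.00794, adjusted p = 0.0159). The ratio of Mat1a to Mat2a was 65.3, 50.001, 48.2, 56.3 and 51.5 in controls and 75.0, 85.1, 84.9 and 63.2 with antibiotics. Control library 1 was above antibiotics library 5, and the ratio was 1.42-fold higher (log2 difference 0.50, exact p = 0.0238, adjusted p = 0.0317). With 1 control left out, the smallest p that 4 libraries against 4 allow is 0.0286, and the adjusted p can pass only where at least 3 of the 4 ratios separate fully. Adjusted p-values of the exact permutation test for these 3 ratios were then 0.0571 to 0.0762 without control library 2, 3, 4 or 5 and 0.0381 without control library 1.

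Gm4737 made up 14.45%, 15.03%, 16.33%, 17.04% and 15.17% of the summed Ahcy and Gm4737 counts in controls, and 17.01%, 17.91%, 16.24% and 18.13% with antibiotics. The ranges overlapped, and the ratio of Gm4737 to Ahcy did not pass (log2 difference 0.18, exact p = 0.0714, adjusted p = 0.0714). The difference between the fold changes of Gm4737 and Ahcy thus did not pass a test of its own.

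**Figure D3:**
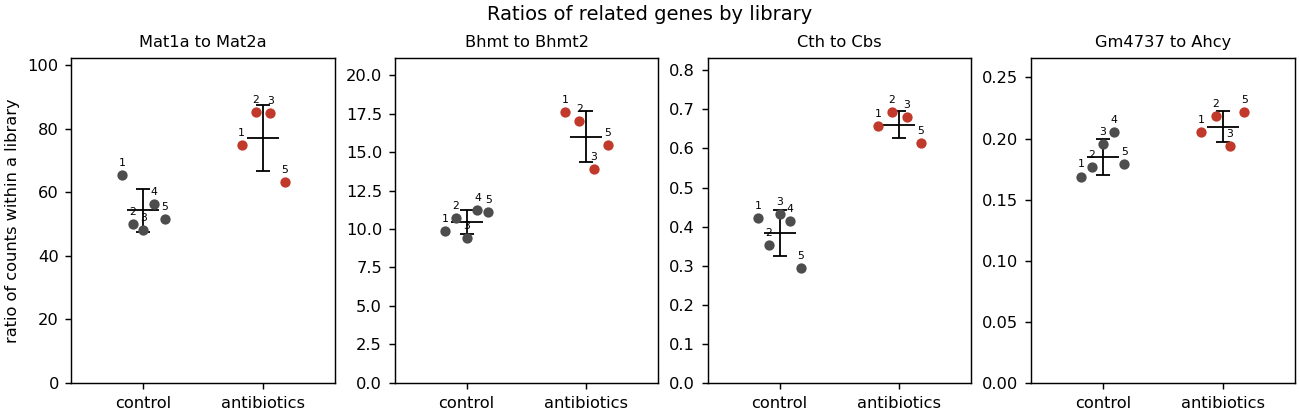
Ratio of the counts of 2 genes within each library (y axes, from 0) for 4 pairs, in control (grey) and antibiotics (red) libraries, with mean ± SD and replicate numbers. Bhmt to Bhmt2 and Cth to Cbs do not overlap between the groups, while Mat1a to Mat2a and Gm4737 to Ahcy do.

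Levels of different genes were compared per length, as CPM per kilobase of the principal annotated transcript. Mat1a has principal transcripts of 3468 and 3208 nt and Cbs of 6226 and 2533 nt, so both genes are given for each length. In controls Gnmt (839 ± 140), Mat1a (786 ± 83.7 or 850 ± 90.5) and Bhmt (676 ± 44.6 CPM per kilobase) were highest. The range of Gnmt overlapped with those of Mat1a and Bhmt. Mat1a started at 661 or 714 and Bhmt reached 710, so these overlapped at the longer Mat1a length only. Ahcy followed at 473 ± 36.1, then Gm4737 at 106 ± 9.23 and Cth at 96.2 ± 10.5, whose ranges overlapped. Bhmt2 stood at 65.2 ± 1.46 and Mat2a at 15.8 to 19.3 CPM per kilobase. Cbs stood at 73.7 or 181 CPM per kilobase. With antibiotics Bhmt had the highest mean, 1266 ± 120 CPM per kilobase, from 1159 in its lowest library. Mat1a, at 1099 ± 41.4 or 1188 ± 44.7, reached at most 1149 or 1243, so it overlapped with Bhmt at the shorter length only, and Gnmt, at 1046 ± 163, overlapped with both. The order among these 3 genes was therefore not resolved in either group, while Mat2a was last in both, at 17.8 ± 1.96 with antibiotics.

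Around these 9 genes, 58 further genes of methyl and sulfur metabolism were grouped into 6 lists by their role, and 56 of them were tested. By edgeR 1 rose and 2 fell, which is 3 of 56 against 2.68% of all tested genes. DESeq2 called 8 higher and 3 lower, where 6.57% of all tested genes passed, and voom 2 and 2, where 2.78% did. An unadjusted p under 0.05 was found for 27 of the 56, 17 higher and 10 lower, against 18.5% of all tested genes. The groups did not overlap for 13 of the 56, against 8.88%, and the median log2 fold change was 0.11. Of the other SAM synthesis and S-adenosylhomocysteine genes, 0 of 4 passed with edgeR, DESeq2 or voom, and 2 had an unadjusted p under 0.05. Those were Mat2b, the regulatory subunit of the Mat2a enzyme (25.1 ± 1.00 and 29.0 ± 2.33 CPM, adjusted p = 0.156), and Ahcyl2, an Ahcy-like gene (20.3 ± 2.90 and 16.3 ± 0.858 CPM, adjusted p = 0.127).

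In the folate branch of remethylation, the alternative to betaine, 2 genes are given, and neither passed with edgeR. Mtr, methionine synthase itself, measured 15.5 ± 2.22 and 11.9 ± 0.679 CPM (adjusted p = 0.0975), and Mmachc, which processes its cobalamin cofactor, 11.5 ± 1.08 and 14.7 ± 1.14 CPM (adjusted p = 0.0703).

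Of 7 genes of betaine, dimethylglycine and sarcosine handling 1 rose and 0 fell (3 and 0 with DESeq2, 2 and 0 with voom). An unadjusted p under 0.05 was found for 3 of the 7, all higher, against 18.5% of all tested genes. Sardh, sarcosine dehydrogenase, acts on the product of Gnmt. It measured 549, 562, 513, 474 and 548 CPM in controls and 823, 683, 670 and 682 CPM with antibiotics. Antibiotics library 1 stood apart from the other 3, and all 4 exceeded every control (log2 fold change 0.43 ± 0.09, edgeR adjusted p = 0.0361). With 1 library left out its call held in 2 of 9 fits, those without control 3 (adjusted p = 0.0486) or control 5 (0.0419), with 0.0584 to 0.105 in the other 7, and it failed without a filter on low counts (0.0507). Dmgdh, which acts on the dimethylglycine that Bhmt makes, measured 454 ± 25.4 and 564 ± 41.6 CPM (adjusted p = 0.0650), and the betaine transporter Slc6a12 62.1 ± 4.91 and 77.9 ± 6.44 CPM (adjusted p = 0.0581).

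Among 15 SAM-dependent methyltransferases 0 passed with edgeR or voom and 1 with DESeq2. An unadjusted p under 0.05 was found for 7 of the 15, 3 higher and 4 lower, against 18.5% of all tested genes. Nnmt, which methylates nicotinamide, measured 68.2 ± 19.6 and 114 ± 17.3 CPM (adjusted p = 0.0696), and the arginine methyltransferase Prmt1 12.2 ± 1.22 and 10.1 ± 0.763 CPM (adjusted p = 0.163). In methionine salvage and polyamine synthesis 0 of 10 passed with edgeR or voom, 1 with DESeq2 and 2 at an unadjusted p under 0.05. Odc1, ornithine decarboxylase, measured 53.7 ± 7.20 and 68.7 ± 3.41 CPM (adjusted p = 0.0685), and Adi1, a dioxygenase of methionine salvage, 114 ± 6.30 and 126.1 ± 3.04 CPM (adjusted p = 0.221).

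Downstream of Cth, in cysteine, taurine and sulfide metabolism, 1 of 14 tested genes fell and 0 rose (2 higher and 1 lower with DESeq2). An unadjusted p under 0.05 was found for 8 of the 14, 6 higher and 2 lower, against 18.5% of all tested genes. Gclc, which starts glutathione synthesis from cysteine, measured 217, 277, 206, 227 and 186 CPM in controls and 129, 125.5, 125.6 and 103 CPM with antibiotics. It moved opposite to Cth, with no overlap between the groups (log2 fold change -0.89 ± 0.12, edgeR adjusted p = 0.00768). Got1, an aminotransferase that also acts on cysteine sulfinate, measured 405 ± 85.6 and 634 ± 125 CPM (adjusted p = 0.0652), and Suox, sulfite oxidase, 75.3 ± 8.26 and 96.5 ± 8.22 CPM (adjusted p = 0.0619).

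**Figure D4:**
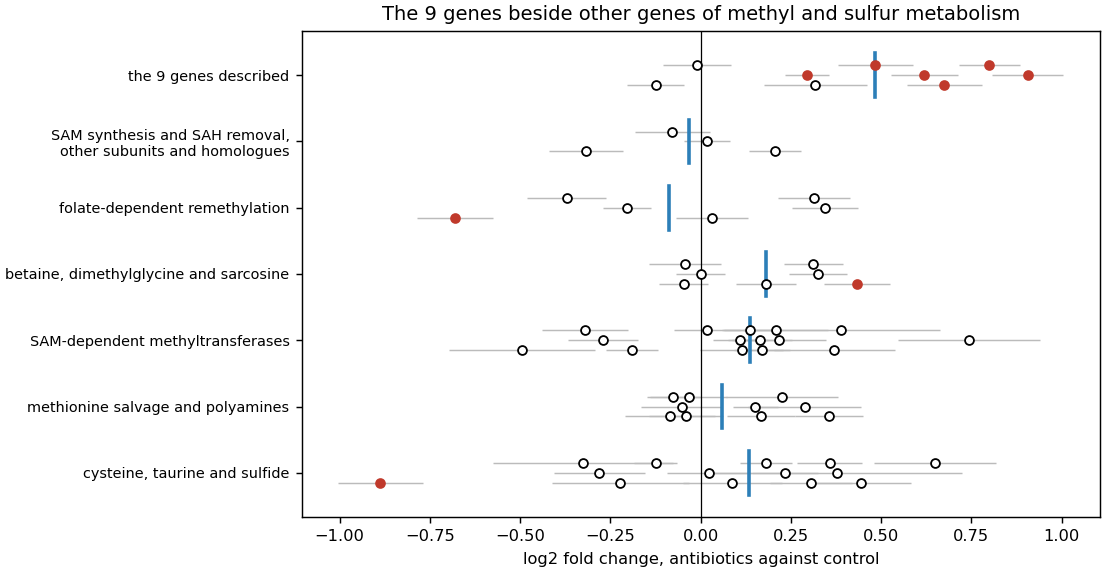
Log2 fold change of each tested gene, antibiotics against control (x axis), with ± SE as grey lines, for the 9 genes and for 6 lists of related genes; filled red points passed at an edgeR adjusted p under 0.05 and blue bars are list medians. The median of the 9 genes is 0.48, and those of the 6 lists run from -0.09 to 0.18.

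The genes most like 3 of the members in pattern were found by the root mean square difference of log2 CPM, relative to the control mean, over the 9 libraries and among 7402 genes. Nearest to Bhmt were Hmgn2 (0.15), Abhd15 (0.18), Spns2 (0.21) and Rdh5 (0.21). Nearest to Ahcy were Acy1 (0.05), Abat (0.08), Slc38a3 (0.08) and Inca1 (0.09), and among the nearest to Cth were Asl (0.09), Abat (0.12) and Etnk2 (0.13). All the genes named here were higher with antibiotics. They were selected for their likeness, so this carries no test.

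The libraries carried liver RNA by their markers: 8 hepatocyte genes summed to 88870 to 103700 CPM in controls and 84780 to 98260 CPM with antibiotics. Of 50 markers of 7 other cell types (macrophages, endothelium, stellate cells, bile duct, lymphocytes, adipocytes and pancreatic acini), 40 were tested. None passed with edgeR, DESeq2 or voom, 2 had an unadjusted p under 0.05, and the summed level of every one of the 7 lists overlapped between the groups. All 8 macrophage markers had a negative log2 fold change, from -0.25 to -1.29 with a median of -0.44. Their sums were 161.2 to 486.2 CPM in controls, highest in control library 2, and 164 to 210.9 CPM with antibiotics. Medians of the other lists ran from -0.10 (stellate cells) to 1.03 (adipocytes, 3 tested). The acinar markers Prss2, Pnlip and Ctrb1 had 0 counts in all 9 libraries. Markers of the zones of the lobule summed to more with antibiotics in most libraries: 10 periportal genes summed to 9709 to 13540 CPM in controls and 12740 to 15190 with antibiotics, and 11 pericentral genes to 6258 to 7866 and 8475 to 11500 CPM. The pericentral sums did not overlap between the groups. Most of that difference was in Cyp2e1 (4149 ± 413 and 5982 ± 1088 CPM, edgeR adjusted p = 0.0662) and Oat (582 ± 82.5 and 950 ± 117 CPM). Glul, Lgr5, Axin2 and Gulo had log2 fold changes of -0.06, -0.42, 0.09 and 0.10. Those of Cyp1a2, Slc1a2, Rgn, Tbx3 and Rhbg were 0.20, 0.26, 0.26, 0.49 and 0.48. The median of the 11 pericentral genes was 0.26, and only Oat passed with edgeR. Of the 10 periportal genes Asl and Sds rose and Cdh1 fell by edgeR, and of the 11 pericentral genes Oat rose (named after their values were seen). For the periportal genes DESeq2 called 5 higher and 1 lower and voom 3 and 1, and for the pericentral genes 3 and 0 and 1 and 0. At an unadjusted p under 0.05, 6 periportal genes were higher and 2 lower, and 4 pericentral genes higher and 0 lower. Of all tested genes 2.68% passed with edgeR, 6.57% with DESeq2 and 2.78% with voom, and 18.5% had an unadjusted p under 0.05. What part zonation had in the results above was not tested.

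Mitochondrially encoded mRNA, a sign of RNA quality, had a positive log2 fold change with antibiotics in all 13 genes, with a median of 0.32. None of the 13 passed with edgeR, DESeq2 or voom, and 4 had an unadjusted p under 0.05, all higher. The genes summed to 52490, 49128, 65257, 54155 and 44865 CPM in control libraries 1 to 5 and to 64206, 73683, 72344 and 49446 CPM in antibiotics libraries 1, 2, 3 and 5. The groups overlapped, with antibiotics libraries 2 and 3 above every control. The part of RNA quality in the results was not tested. With mitochondrial genes left out of the library totals, the same 6 members passed, and so they did after thinning every library to the smallest total.

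**Figure D5:**
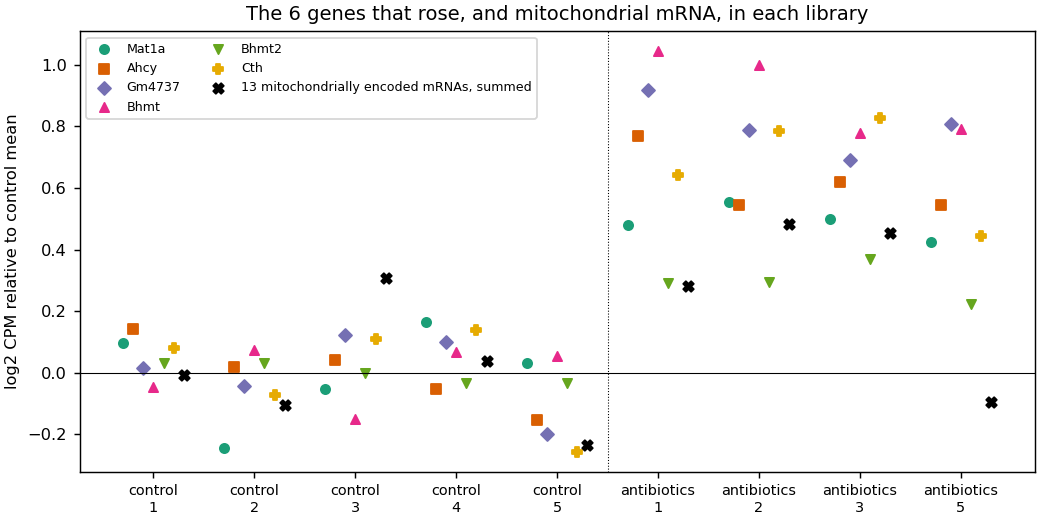
Log2 CPM relative to the control mean (y axis) of the 6 genes that rose (coloured symbols) and of 13 summed mitochondrially encoded mRNAs (black crosses) in each of the 9 libraries (x axis). The 6 genes are above all of their control values in each antibiotics library, and the mitochondrial sum is above the control mean in antibiotics libraries 1, 2 and 3 and below it in 5.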

How the data were processed

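Libraries were made with a stranded mRNA kit, per the labels' protocols. The authors deposited estimated counts per gene as whole numbers, from Salmon and GRCm38 (per the submitters' processing notes); no source used here gives its version, settings or annotation. The labels do not tie each library to its own mouse, so p-values measure the spread between libraries, which may be technical. No 2 libraries of a group agreed within sampling noise (lowest chi-square per degree of freedom 20.2).

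Genes were filtered with filterByExpr (minimum count 10, total 15), scaled by TMM and tested with edgeR 4.0.16 in R 4.3.3, with group as the only term. The test was also run on simulated counts with the same dispersion for all genes. There it called 40% of the genes changed 1.5-fold and 94% of those changed 2-fold, so many smaller changes can be missed. The SE is the log2 fold change over the square root of F. Ratios had 0.5 counts added to both terms. Copies were transcripts matched by BLAST+ 2.17.0 over 200 nt or more at 95% identity or more.

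Alternatives were other scaling factors (RLE, upper quartile), DESeq2 1.42.0, voom in limma 3.58.1, other filters and library totals, thinning, summed copies, a block by replicate number and each library left out; adding Gm9826 was chosen after seeing the data. The 9 genes, the lists, tests and alternatives were chosen with earlier results of these data known. Also named were, per list, the genes that passed and up to 2 more with the smallest p, and the 4 genes nearest in pattern (log2 CPM, prior count 2, mean of at least 10 CPM) to Bhmt, Ahcy and Cth. Of the genes this rule gives, 2 are not reported here.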

Additional observations from a re-analysis of the deposited data

Results flagged for a closer look

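In 4 of 60 groups of library values examined, 1 library stood apart from the others of its group by Dixon's criterion, which chance meets in about 1 group in 20. Antibiotics library 5 held 59179622 counts against 15422891 to 18504624 in the other 3 of its group. Sardh was at 823 CPM in antibiotics library 1, against 670.3 to 683 in the other 3. Gclc was at 103 CPM in antibiotics library 5, against 125.5 to 129. Dmgdh was at 499 CPM in control library 1, against 436 to 449.5 in the other controls. No value of the 9 genes, nor of their 4 ratios, stood apart in this way.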

How the results depend on the processing

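All 6 members that passed kept their direction under every alternative run, and Bhmt, Ahcy and Gm4737 passed in each of them. Mat1a and Bhmt2 did not pass without a filter on low counts (adjusted p = 0.0574 and 0.0890), nor did Sardh (0.0507), whereas Nnmt (0.0436) and Got1 (0.0486) did. The replicate numbers are shared between the groups, but same-numbered libraries correlated at only -0.06 to 0.10 after removal of group means, and 2 of the 4 antibiotics libraries correlated best with the control of their own number. With the replicate block 115 genes were higher and 54 lower, and 4 members passed (Ahcy, Gm4737, Bhmt and Cth), not Mat1a (adjusted p = 0.0687) or Bhmt2 (0.0885). Under the block Sardh did not pass (0.0745) and Got1 did (0.0276). DESeq2 called 516 genes higher and 459 lower, where the main test called 242 and 156. Leaving out 1 library gave 28 to 276 higher and 8 to 191 lower genes, 3 to 6 members higher and 0 lower, the fewest without antibiotics library 5 (28 and 8). The total of 398 moved by over 1.5 times without controls 1 (171), 2 (165) or 4 (144) or antibiotics libraries 1 (53), 2 (216), 3 (56) or 5 (36). Of the 58 related genes, DESeq2 called 8 higher, and upper-quartile factors, voom, no filter, a filter at 1 CPM and thinning each called 2 higher; leaving out 1 library gave 0 to 3 higher and 1 to 3 lower. The log2 differences of the ratios ran from 0.45 to 0.60 (Mat1a to Mat2a), 0.56 to 0.67 (Bhmt to Bhmt2), 0.71 to 0.85 (Cth to Cbs) and 0.15 to 0.22 (Gm4737 to Ahcy) when 1 library was left out. The first 3 had adjusted p = 0.0571 to 0.0762 in the 4 tests without control 2, 3, 4 or 5, where the smallest p of 4 libraries against 4 is 0.0286.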
